A study of Mus musculus with 10 samples.

Results

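Enteroendocrine cells are scattered hormone-making cells of the gut epithelium. They keep peptide hormones or serotonin in secretory granules and release them when nutrients, bile acids or microbial products reach the gut surface, and the hormones act on appetite, insulin release, motility and ion transport. In the large bowel the main kinds are L cells, which make peptide YY and the glucagon-like peptides, and enterochromaffin cells, which make serotonin. The 10 genes described here code for granule proteins (Chga and Chgb), for the serotonin-making enzyme Tph1, and for the hormones Pyy, Gcg, Insl5, Cck, Sct, Nts and Sst. They were taken by name from the 19505 genes with a symbol on the array, all 10 were measured, and each had 1 probe set.

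The samples were complete colon tissue of wild-type C57BL/6 mice, profiled on 10 single-colour arrays. In the 5 ECP samples, mice with colitis were additionally given donor cells treated by ECP (extracorporeal photopheresis: white blood cells are loaded with a light-activated drug and irradiated with UVA before transfer). The 5 control samples came from mice with colitis that are not labelled as having received such cells. All mice of both groups had drunk 3% dextran sulfate sodium (DSS), which injures the colonic epithelium, and had received an antibody against the checkpoint receptor PD1 by intraperitoneal injection, so neither group is free of colitis. Age, sex, the length of treatment and whether each array is a separate mouse are not given in the labels, and p-values therefore measure the spread between these samples. Values are log2 RMA intensities, on which a difference of 1 is a doubling, and a probe set's intensity can be compared between arrays but not with that of another gene.

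Stretches of 150 bases directly upstream of the start site are shown for the granule protein genes and Sst, and for the L cell hormone genes, because the first set holds a shared short element and the second set varied together over the arrays. The sequences are from RefSeq on build GRCm38.p6, read 5′ to 3′ on the gene's strand, and all 10 genes were found in that table. In the first set the capitals mark TGACGT, the core of the cAMP response element, searched on both strands. It was present in 3 of the 10 genes' windows and in 5.15% of the 32851 windows of the same length in the table. These 3 genes are the first set, which was picked by the match itself. That they share the element is thus no result, and the set does not come from the array values. In Chgb and Sst a match on each strand overlaps, which spells the whole palindrome in capitals.

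Chga: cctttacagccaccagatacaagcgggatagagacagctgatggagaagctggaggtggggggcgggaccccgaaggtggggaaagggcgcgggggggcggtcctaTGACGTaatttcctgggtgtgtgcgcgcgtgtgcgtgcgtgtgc
Chgb: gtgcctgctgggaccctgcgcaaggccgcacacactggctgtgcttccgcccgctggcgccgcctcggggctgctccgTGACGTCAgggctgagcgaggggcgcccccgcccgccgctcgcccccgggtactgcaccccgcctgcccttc
Sst: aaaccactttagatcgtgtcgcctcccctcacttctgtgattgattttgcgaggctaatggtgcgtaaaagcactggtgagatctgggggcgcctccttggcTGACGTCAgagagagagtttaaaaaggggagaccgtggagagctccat

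The Chga window lies at chr12:102554791-102554940 on the plus strand, and its match begins 44 bases before the start site. The Chgb window lies at chr2:132781492-132781641 on the plus strand, and its matches begin 72 and 70 bases before the start. The Sst window lies at chr16:23890845-23890994 on the minus strand, with matches 48 and 46 bases before the start.

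In the L cell hormone genes the capitals mark CANNTG, the E-box letters that basic helix-loop-helix factors such as those of the enteroendocrine lineage can bind. This short pattern was present in 6 of the 10 genes' windows and in 47.7% of all windows, so its presence sets no gene apart.

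Pyy: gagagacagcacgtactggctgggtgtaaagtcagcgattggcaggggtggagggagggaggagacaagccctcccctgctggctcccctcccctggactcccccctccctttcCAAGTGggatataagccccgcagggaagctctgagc
Gcg: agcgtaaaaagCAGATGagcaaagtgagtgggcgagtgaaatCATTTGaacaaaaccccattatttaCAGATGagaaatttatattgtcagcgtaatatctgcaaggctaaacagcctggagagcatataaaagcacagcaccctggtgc
Insl5: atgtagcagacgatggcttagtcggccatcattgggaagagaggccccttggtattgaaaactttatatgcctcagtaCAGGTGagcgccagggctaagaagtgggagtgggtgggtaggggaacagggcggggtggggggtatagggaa

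The Pyy window lies at chr11:102107833-102107982, the Gcg window at chr2:62483654-62483803 and the Insl5 window at chr4:103027272-103027421, all on the minus strand. Pyy and Insl5 have 2 windows each in the table, and the first one listed is shown. The TATA box letters TATAAA, searched on both strands, were found in the windows of Gcg, Insl5 and Sct and in 7.57% of all windows. A match is a description of the letters, and these arrays did not measure binding.

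The hormone, granule and serotonin genes were not called different between ECP and control colons. With limma over all genes, 0 of the 10 had an adjusted p under 0.05 (0% of all 19505 genes were called) and 0 of the 10 had an unadjusted p under 0.05, against 5.08% of all genes. With trend and robust options limma called 1 gene of all, which was not one of the 10. Of the 10 genes 8 had a higher mean in the ECP arrays, where 53.3% of all genes did, and their median difference was 0.15 beside 0.0078 over all genes. The ECP and control arrays overlapped for every one of the 10, and 1.22% of all genes had groups that did not overlap. Array by array, the lowest value of 9 of the 10 genes was in control replicate 4, which also had the highest acinar, Ins2 and B cell transcripts. The 8 smooth muscle markers ran the same way, with 8 of 8 higher in the ECP arrays and a median difference of 0.32, and 0 were called.

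**Figure D1:**
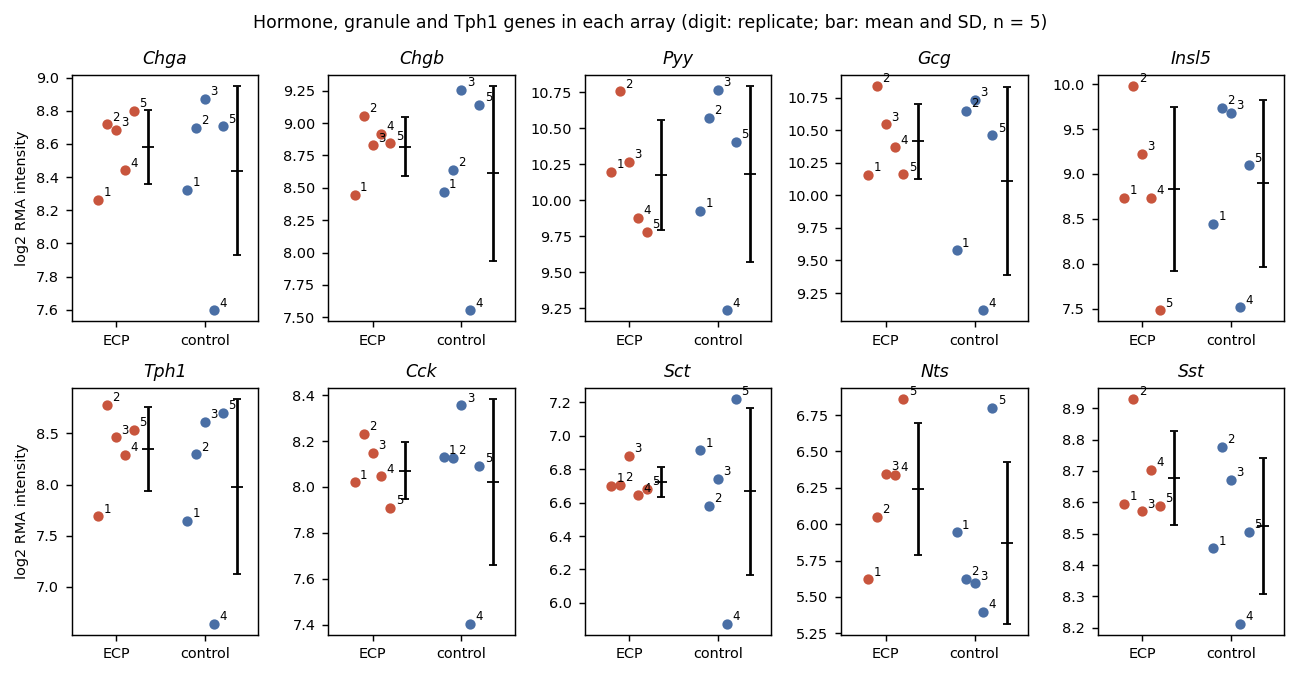
Log2 RMA intensity (vertical axis) of the 10 genes in each array, with ECP arrays in red on the left of each panel and control arrays in blue on the right. Digits are replicate numbers and black bars are the mean and SD of 5 arrays. Control replicate 4 is the lowest point in every panel except that of Insl5, where ECP replicate 5 is lowest at 7.48.

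Chromogranin A and B are acidic proteins that help to form the secretory granule and serve as general markers of endocrine cells. Chga was at 8.26, 8.72, 8.68, 8.44 and 8.80 in ECP replicates 1 to 5, against 8.32, 8.70, 8.87, 7.60 and 8.71 in control replicates 1 to 5. Chgb was at 8.45, 9.06, 8.83, 8.92 and 8.84 in the ECP arrays, against 8.47, 8.64, 9.25, 7.55 and 9.14 in the control arrays. In both genes control replicate 4 was far below every other array, replicate 1 of either group was next, and control replicate 3 was highest. The group means of Chga were 8.58 ± 0.22 in the ECP arrays and 8.44 ± 0.51 in the control arrays (SD, n = 5 each), a difference of 0.14 with a limma 95% interval from -0.32 to 0.61. For Chgb the difference was 0.21, with an interval from -0.38 to 0.79. The limma adjusted p was 0.998 for each.

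Tph1 is the rate-limiting enzyme of serotonin synthesis in enterochromaffin cells. It was at 7.69, 8.78, 8.46, 8.29 and 8.53 in the ECP arrays, against 7.65, 8.30, 8.62, 6.64 and 8.70 in the control arrays. The same 3 arrays as for the chromogranins were low, namely control replicate 4 and replicate 1 of each group. It averaged 8.35 ± 0.41 in the ECP arrays and 7.98 ± 0.86 in the control arrays (SD, n = 5 each), a difference of 0.37 with an interval from -0.40 to 1.14 (limma adjusted p = 0.998). The gap between control replicate 4 and the next array was 1.01 on the log2 scale, the widest such gap of the 10 genes.

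Peptide YY, the glucagon-like peptides cut from the Gcg product, and insulin-like peptide 5 are the hormones of colonic L cells. Pyy, which codes for the appetite- and secretion-lowering peptide YY, was at 10.20, 10.76, 10.27, 9.88 and 9.78 in the ECP arrays, against 9.93, 10.57, 10.77, 9.24 and 10.41 in the control arrays. Gcg, the gene of proglucagon, was at 10.16, 10.84, 10.55, 10.37 and 10.16 in the ECP arrays, against 9.58, 10.65, 10.74, 9.12 and 10.46 in the control arrays. Insl5, which codes for a relaxin-family hormone of colonic L cells, was at 8.74, 9.98, 9.22, 8.74 and 7.48 in the ECP arrays, against 8.45, 9.74, 9.68, 7.51 and 9.09 in the control arrays. All 3 genes were high in ECP replicate 2 and in control replicates 2 and 3, and low in control replicate 4. ECP replicate 5 was the lowest ECP array for Pyy and for Insl5, and lay within 0.01 of the lowest for Gcg.

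None of these 3 L cell hormone genes was called. Pyy averaged 10.18 ± 0.38 in the ECP arrays and 10.18 ± 0.61 in the control arrays (SD, n = 5 each), a difference of -0.0052 with an interval from -0.60 to 0.59. Gcg averaged 10.41 ± 0.29 in the ECP arrays and 10.11 ± 0.72 in the control arrays, and its difference of 0.31 had an interval from -0.33 to 0.94. Insl5 had the widest range of the 10 genes, 2.50 on the log2 scale over the 10 arrays, and its difference of -0.06 had an interval from -1.12 to 0.99. The limma adjusted p was 0.998 for Gcg and 1.000 for the other 2, and the interval of Insl5 reached to about a doubling on either side of 0.

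Cholecystokinin and secretin are hormones best known from the upper small intestine, where they act on gall bladder, pancreas and stomach. Cck was at 8.02, 8.23, 8.15, 8.05 and 7.91 in the ECP arrays, against 8.13, 8.13, 8.36, 7.40 and 8.09 in the control arrays. Sct was at 6.70, 6.71, 6.88, 6.64 and 6.68 in the ECP arrays, against 6.91, 6.58, 6.74, 5.88 and 7.22 in the control arrays. For both genes the ECP arrays lay close together and control replicate 4 alone was far below, by 0.50 for Cck and 0.70 for Sct from the next array. Their differences were 0.05 (interval -0.28 to 0.38) and 0.06 (interval -0.37 to 0.48).

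Neurotensin acts on motility and fat uptake, and somatostatin, made by D cells and by some enteric neurons, inhibits the release of other hormones. Nts was at 5.62, 6.05, 6.35, 6.34 and 6.86 in the ECP arrays, against 5.94, 5.62, 5.59, 5.40 and 6.80 in the control arrays. It was highest in replicate 5 of each group, and its difference was 0.37 (interval -0.22 to 0.96, limma adjusted p = 0.998). Sst was at 8.59, 8.93, 8.57, 8.70 and 8.59 in the ECP arrays, against 8.45, 8.78, 8.67, 8.21 and 8.51 in the control arrays. It had the narrowest range of the 10 genes (0.72) and a difference of 0.15 (interval -0.09 to 0.39).

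The sign of most of these differences rested on 2 control arrays. Without control replicates 1 and 4, which carried pancreatic transcripts, the ECP mean was above the control mean for 2 of the 10 genes and below it for 8, where 49.4% of all genes were higher. Their median difference was then -0.18, beside -0.0016 for all genes. Tph1 was at -0.19, Gcg at -0.20, Chgb at -0.19, Chga at -0.18, Cck at -0.12 and Sct at -0.13, while Nts and Sst kept positive values of 0.24 and 0.03. Pyy moved to -0.41 (interval -0.83 to 0.02) and Insl5 to -0.67 (interval -1.64 to 0.30). The limma adjusted p ran from 0.781 to 0.980 over the 10 genes in these 8 arrays, and 0% of all genes were called. Both arrays left out are controls. In control replicate 4 all 10 genes were below their own mean over the arrays, and in control replicate 1, 8 were. Leaving them out was thus bound to lower most differences. ECP replicate 1, also with 8 genes below their mean, was kept. Control replicate 4 alone was enough to turn Chga, Chgb, Cck and Sct, which were at -0.068, -0.057, -0.11 and -0.14 without it. Leaving it out also brought Tph1 to 0.036 and Gcg to 0.059, without a turn.

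**Figure D2:**
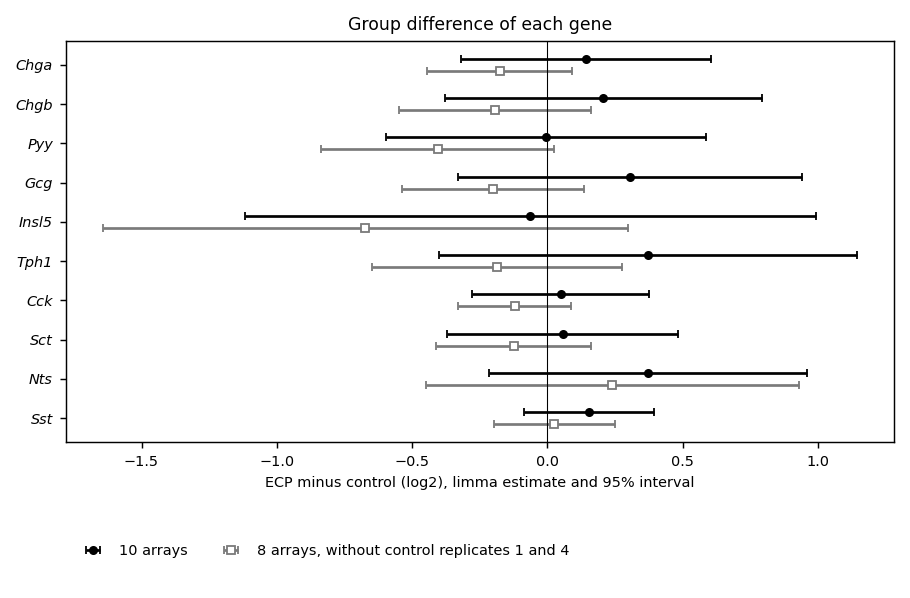
ECP minus control on the log2 scale (horizontal axis) for each gene, with limma 95% intervals, from all 10 arrays (filled circles) and from the 8 arrays without control replicates 1 and 4 (open squares). Every interval includes 0, and 6 of the 10 estimates move to the other side of 0 between the 2 sets.

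Array by array, the hormone genes were set against pancreatic transcripts. Ctrb1, which codes for the pancreatic enzyme precursor chymotrypsinogen B, was at 5.19, 5.21, 4.78, 4.91 and 5.18 in the ECP arrays, against 12.15, 5.42, 5.38, 13.57 and 6.46 in the control arrays. Ins2, an insulin gene of the islet beta cell, was at 6.62, 6.89, 6.73, 6.41 and 6.70 in the ECP arrays, against 7.69, 6.75, 6.74, 8.80 and 6.36 in the control arrays. Control replicates 1 and 4 were thus the highest arrays for both. Gcg and Sst are also hormones of the pancreatic islet. Control replicates 4 and 1 were the lowest and the second lowest of the 10 arrays for each of them. The part of islet RNA in these values was not tested.

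Marker lists of other tissues and cells were set beside these arrays too. The 13 acinar genes measured of 15 had a mean level of 5.64 to 5.80 in the ECP arrays and 5.80 to 12.21 in the control arrays, with 12.21 in control replicate 4 and 10.32 in control replicate 1. The 9 islet genes measured of 10 were at 5.44 to 5.65 in the ECP arrays and 5.51 to 5.83 in the control arrays, with 5.77 in control replicate 4 and 5.83 in control replicate 1. The 8 B cell genes measured of 9 were at 5.92 to 7.03 in the ECP arrays and 6.07 to 8.57 in the control arrays, again with the top value in control replicate 4. The 12 colon epithelium genes were at 11.66 to 11.72 in the ECP arrays and 11.52 to 11.72 in the control arrays, and 11.52 was control replicate 4. The 8 smooth muscle genes were at 10.27 to 10.83 in the ECP arrays and 9.64 to 10.56 in the control arrays, and their lowest levels were 9.99 in control replicate 4 and 9.64 in control replicate 1, the same 2 arrays. Relative to the mean of control replicates 2, 3 and 5, the median over the muscle genes was -0.61 in control replicate 4 and -0.91 in control replicate 1, and over the 10 hormone, granule and serotonin genes it was -1.25 and -0.49 in these arrays. Without control replicates 1 and 4, the ECP mean was above the control mean for 5 muscle genes and below it for 3, with a median of 0.03. The 13 enteric neuron genes were at 6.49 in control replicate 4 and 6.32 in control replicate 1, the 11 small intestine and stomach genes at 6.14 and 6.38, and the 6 posterior Hox genes at 6.11 and 5.87. Of these, 6.14 was the lowest small intestine and stomach level of the 10 arrays, and 6.32 and 5.87 were the lowest neuron and Hox levels. The acinar, epithelium and neuron levels served only as covariates in the fit of the group difference. The next highest acinar level was 6.59 in control replicate 5, so the acinar covariate mainly marks control replicates 1 and 4. The part of these other transcripts, smooth muscle among them, in the hormone values was not tested.

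In control replicate 4 all 10 hormone, granule and serotonin genes lay below their own mean over the arrays, by 0.95 on average on the log2 scale. In ECP replicate 1 and in control replicate 1, 8 of the 10 did, and the average over the 10 genes was -0.17 in ECP replicate 1 and -0.23 in control replicate 1. ECP replicate 2 stood highest, with an average of 0.40 above and 1 gene below its mean. Control replicate 4 was the lowest of the 10 arrays for 9 of the 10 genes and for 20.4% of all genes. It was also the lowest for 10 of the 12 epithelium markers, for 7 of 13 nutrient sensors and for 7 of 15 other serotonin pathway genes. The same held for 4 of 13 granule and processing genes, 5 of 13 lineage transcription factors and 7 of 19 hormone receptors and degrading enzymes. Among the 14 other gut peptide genes control replicate 4 was the lowest array for only 1 (7.1%), a smaller share than among all genes. Relative to the mean of control replicates 2, 3 and 5, the median over these 14 genes was 0.04 in control replicate 4. The list is mixed, since it also holds Vip of the enteric neuron list and Iapp of the islet list. It therefore does not show what epithelial hormone genes in general did in this array. In tissue RNA, fewer hormone cells, less hormone RNA per cell and a larger part of other tissue in the sample cannot be told apart.

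**Figure D3:**
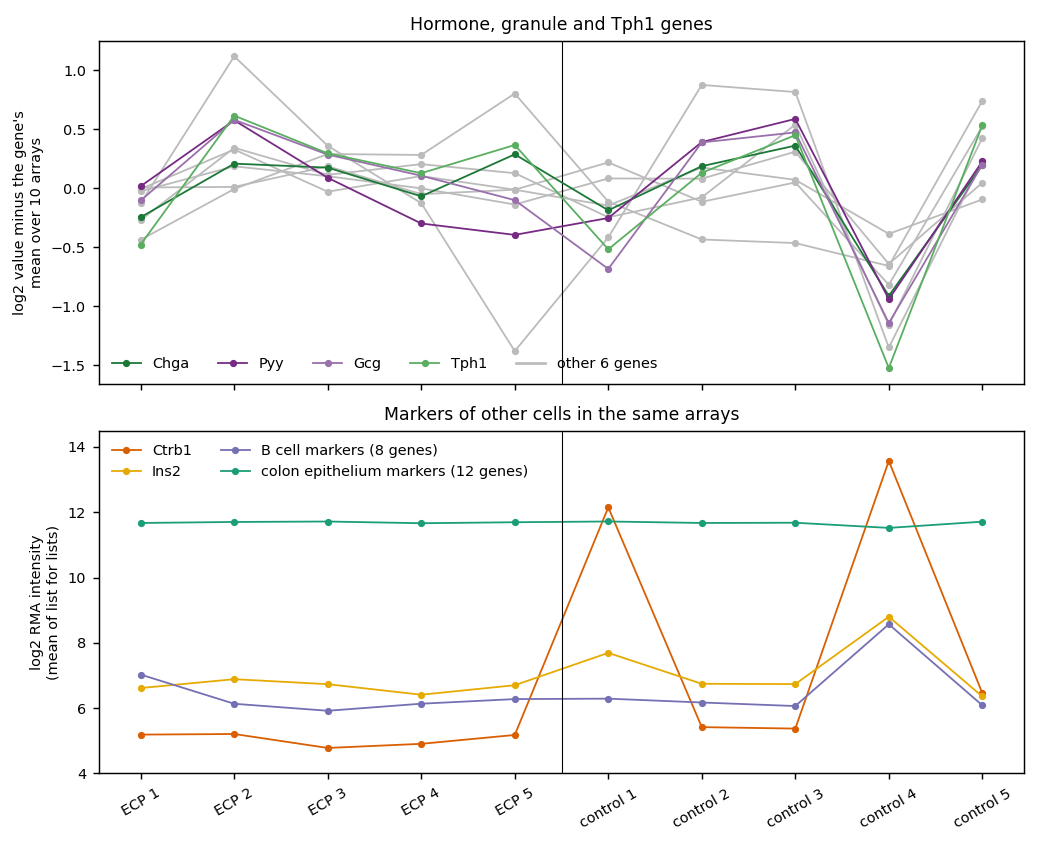
The upper panel shows each of the 10 genes minus its own mean over the 10 arrays (log2), by array with ECP arrays left and control arrays right of the line. The lower panel shows Ctrb1, Ins2 and the mean level of 8 B cell and 12 colon epithelium markers in the same arrays. Control replicate 4 has the lowest value of 9 of the 10 genes (all except Insl5) and the highest Ctrb1 (13.57), Ins2 (8.80) and B cell level (8.57), while control replicate 1 has high Ctrb1 (12.15) with smaller drops.

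The L cell hormone genes and Cck varied together over the arrays. Since control replicate 4 stood apart, relations were computed over the 8 arrays without control replicates 1 and 4, for all 45 pairs, with exact permutation p-values over 40320 pairings adjusted over the 45. Of the pairs 39 were positive and 6 negative, and 7 passed an adjusted p under 0.05 for Pearson's r. The 6 pairs among Pyy, Gcg, Insl5 and Cck were all among these 7. The share of pairs of other genes that would pass in these 8 arrays was not computed. The count is therefore not shown to be particular to these genes. Pyy and Insl5 had r = 0.909 (exact permutation p = 0.00047, adjusted p = 0.0134) and rho = 0.905 (exact permutation p = 0.0046, adjusted p = 0.0513), and leaving out the 2 arrays whose Pyy lay farthest from its median gave r = 0.910. Gcg and Insl5 had r = 0.896 (exact permutation p = 0.00060, adjusted p = 0.0134) and rho = 0.905 (exact permutation p = 0.0046, adjusted p = 0.0513), with r = 0.973 without the 2 farthest arrays. No pair passed the threshold for rho, whose smallest adjusted p was 0.0513 in these exact permutation tests.

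Chgb and Tph1 were the seventh pair, with r = 0.857 (exact permutation p = 0.0045, adjusted p = 0.0404), rho = 0.762 (exact permutation p = 0.0368, adjusted p = 0.207) and r = 0.786 without the 2 farthest arrays. Chga and Tph1 had r = 0.849 (exact permutation p = 0.0125, adjusted p = 0.0705) and rho = 0.786 (exact permutation p = 0.0279, adjusted p = 0.180). Without the 2 arrays whose Chga lay farthest from its median r was 0.198. The 2 arrays left out were ECP replicates 1 and 4, at 8.26 and 8.44, and the r of 0.849 thus rested largely on them. The arrays left had Chga only from 8.68 to 8.87. Leaving out the farthest arrays narrows the range for every pair, so the trimmed r values of the other pairs carry the same limit. Nts had negative r with Pyy, Gcg and Insl5 over these 8 arrays, none of which passed the test, and over all 10 arrays r was -0.00593 with Pyy, 0.264 with Gcg and -0.159 with Insl5. Over the 8 arrays it had r = -0.608 with Insl5 (exact permutation p = 0.101, adjusted p = 0.380) and rho = -0.500 (exact permutation p = 0.216, adjusted p = 0.423), or r = -0.407 without the 2 farthest arrays. The arrays share 1 normalisation, both groups are pooled in these values, and epithelial content was not held fixed.

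**Figure D4:**
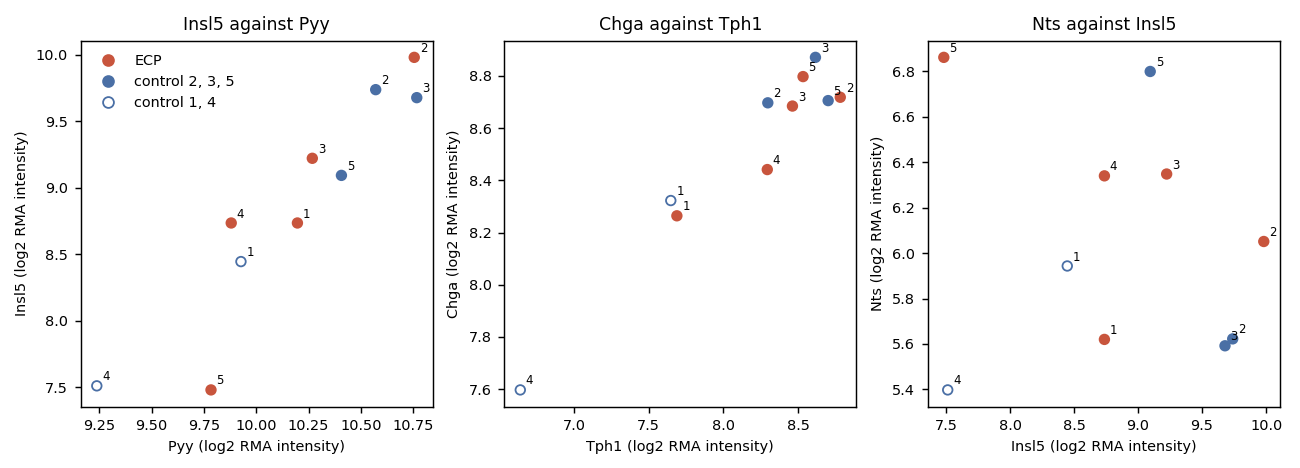
Log2 RMA intensities of pairs of genes in the 10 arrays (digits are replicate numbers), with Insl5 against Pyy, Chga against Tph1 and Nts against Insl5. Open circles are control replicates 1 and 4, which the correlations leave out. Insl5 and Pyy lie along a line in both groups, and ECP replicate 5 combines low Insl5 (7.48) with the highest Nts (6.86).

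ECP replicate 5, the array with the lowest Insl5 and the highest Nts, also had the lowest Hoxb13, a homeobox gene of the posterior gut and tail. Hoxb13 was at 8.51, 7.55, 7.04, 6.56 and 5.96 in the ECP arrays, against 7.39, 8.41, 8.05, 8.09 and 7.43 in the control arrays. Hoxd10, another posterior homeobox gene, was highest there, at 5.54, with 4.20 to 4.74 in the other ECP arrays and 4.12 to 4.48 in the control arrays. The 6 posterior Hox genes did not move one way in this array. Hoxa13 was also lowest there, at 8.55, Hoxd11 and Hoxd12 were highest there, at 5.47 and 6.63, and Hoxd13 was at 4.61, above control replicate 1 alone. The mean level of the 6 genes was 6.13 in ECP replicate 5, inside the range of 5.93 to 6.35 in the ECP arrays and 5.87 to 6.17 in the control arrays. Between the groups 4 of the 6 were higher in the ECP arrays and 0 were called. Hoxd11 differed by 0.51 (SE 0.18, limma adjusted p = 0.849). Hoxb13 differed by -0.75, the largest difference of the 6 in size, and by -1.09 to -0.46 without single arrays. Hoxb13, Hoxd10 and Hoxd12 had limma adjusted p of 0.998 each. Which stretch of the colon each piece came from is not given beyond complete colon tissue, and its part in these values was not tested.

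None of the genes that make hormones ready for release was called. Of 13 granule and prohormone processing genes measured of 14, 9 were higher and 4 lower, 0 were called, and the median difference was 0.09. Vgf, which codes for a granule peptide precursor, was at 6.42, 6.44, 6.44, 6.48 and 6.46 in the ECP arrays, against 6.24, 5.99, 6.25, 5.88 and 6.37 in the control arrays. All ECP arrays lay above all control arrays for Vgf, the only gene of this list of which that was true, with a difference of 0.30 (SE 0.09, limma adjusted p = 0.658). Groups without overlap, in either direction, were seen for 1.22% of all genes. Pcsk1, the proprotein convertase that cuts proglucagon into glucagon-like peptides in L cells, averaged 6.27 ± 0.26 in the ECP arrays and 5.87 ± 0.39 in the control arrays (SD, n = 5 each; difference 0.39, limma adjusted p = 0.982). The granin gene Scg2 differed by 0.55 (SE 0.22) and Scg5, a chaperone of prohormone convertases, by 0.24 (SE 0.09), with limma adjusted p of 0.939 and 0.887. Without control replicates 1 and 4 the 4 values were 0.24 for Vgf, 0.16 for Pcsk1, 0.28 for Scg2 and 0.16 for Scg5, and the list had 6 genes higher and 7 lower. Several of these genes are also active in enteric neurons, whose 13 measured markers of 14 had a mean level of 6.51 to 6.71 in the ECP arrays and 6.32 to 6.70 in the control arrays. Of these, 11 were higher and 0 were called.

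Transcription factors of the enteroendocrine lineage showed no call among 13 measured of 16. Neurog3, which starts the lineage, averaged 6.37 ± 0.11 in the ECP arrays and 6.57 ± 0.25 in the control arrays (SD, n = 5 each; difference -0.20, limma adjusted p = 0.998). Insm1, a zinc finger factor of endocrine differentiation, differed by 0.24 (SE 0.08, limma adjusted p = 0.831), Nkx2-2 by -0.16 and Etv1 by 0.30. The list had 7 genes higher and 6 lower with a median difference of 0.03, and 5 higher and 8 lower with a median of -0.077 without control replicates 1 and 4.

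In the serotonin pathway apart from Tph1, 12 of 15 genes had a higher ECP mean and 0 were called (10 of 15 without control replicates 1 and 4). Htr3a, which codes for a subunit of the serotonin-gated ion channel, was at 6.85, 6.84, 6.58, 6.68 and 6.74 in the ECP arrays, against 6.38, 6.44, 6.41, 6.63 and 6.36 in the control arrays. It differed by 0.30 (SE 0.08, limma adjusted p = 0.470), with only control replicate 4 reaching into the ECP range. Without control replicates 1 and 4 its difference was 0.33. Maoa, which breaks serotonin down, differed by 0.16, the receptor gene Htr2b by 0.41 and the receptor gene Htr1b by -0.16, all with limma adjusted p of 0.998.

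Sensors and receptors had small differences. Of 13 nutrient and bile acid sensors measured of 14, 10 were higher, with a median of 0.03, and without control replicates 1 and 4, 5 were higher and 8 lower, with a median of -0.016. With all arrays the fatty acid receptor genes Ffar4 and Ffar3 differed by 0.12 and 0.06, the sodium-glucose transporter Slc5a1 by 0.08 and the mechanosensitive channel Piezo2 by -0.14. Of 19 hormone receptors and hormone-degrading enzymes measured of 20, 7 were higher and 12 lower, with a median of -0.01, and 5 were higher and 14 lower, with a median of -0.061, without control replicates 1 and 4. The glucagon receptor gene Gcgr differed by -0.13, the somatostatin receptor genes Sstr5 and Sstr3 by -0.15 and -0.14, and the receptor gene Npy5r, which binds peptides of the peptide YY family, by 0.12. All 8 genes named here had a limma adjusted p of 0.998.

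Other gut peptide genes behaved one by one. Of 14, 8 were higher, 0 were called and the median was 0.04, against 6 higher and a median of -0.0077 without control replicates 1 and 4. Penk, the gene of the opioid precursor proenkephalin, averaged 9.35 ± 0.18 in the ECP arrays and 8.91 ± 0.44 in the control arrays, and Adcyap1, the gene of a neuropeptide of the secretin family, averaged 5.19 ± 0.20 in the ECP arrays and 5.57 ± 0.33 in the control arrays (SD, n = 5 each). Their differences were 0.44 and -0.38, each with a limma adjusted p of 0.939. Uroguanylin, coded by Guca2b and acting on epithelial fluid secretion, differed by 0.14, and Iapp, an islet peptide, by -0.18, or by -0.0005 without control replicate 4.

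**Figure D5:**
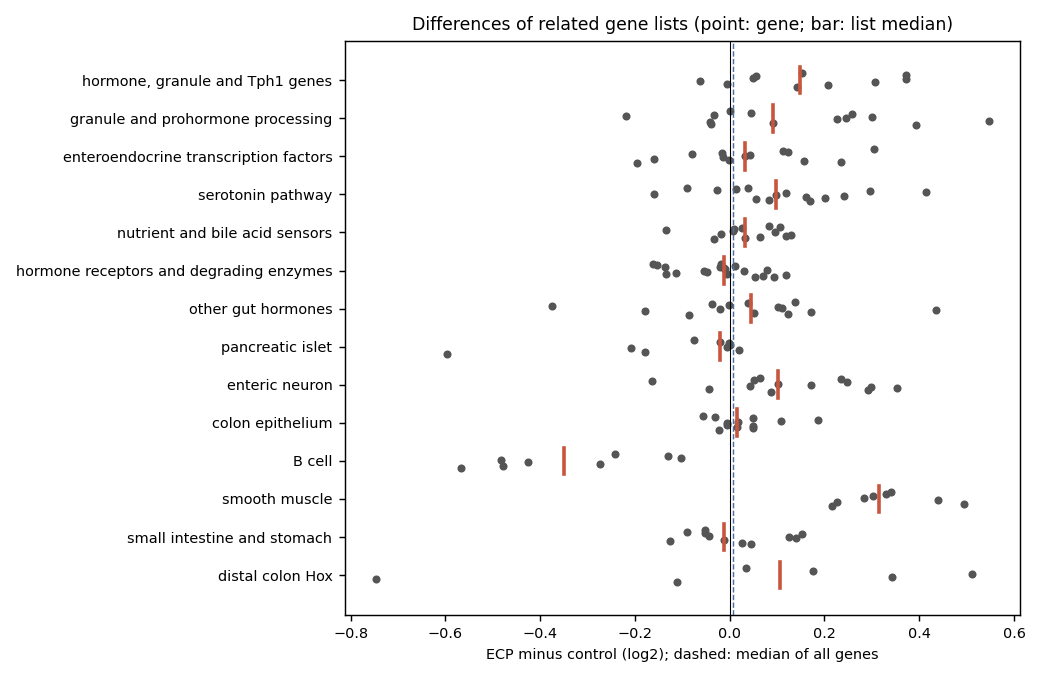
ECP minus control (log2, horizontal axis) of each measured gene in the hormone list and in 13 related lists, with list medians as red bars and the median of all genes as a dashed line. The acinar list, whose median is -2.27, is left out to keep the scale. The 10 hormone, granule and serotonin genes run from -0.06 to 0.37.

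Genes whose profile over the arrays was most like that of each hormone gene were ranked by Pearson's r among the 19495 other genes, as a description. Over 10 arrays Insl5 was nearest to Pfkfb4 (r = 0.976), which codes for an enzyme of glycolysis control, and this gene was again at 0.976 over the 8 arrays without control replicates 1 and 4. Cck was nearest to Vps72 (0.962, and 0.969 over 8 arrays) and Nts to Ankrd37 (0.959, and 0.974 over 8 arrays). Fhit was among the nearest genes of both Chga (0.968) and Chgb (0.966) over 10 arrays, and Arhgap20 of both Chgb (0.971) and Tph1 (0.973). For Nts over 8 arrays the second nearest gene was Lct, which codes for the small intestinal enzyme lactase (0.956). With this many candidates and so few arrays, values of this size mark rank only, and over 10 arrays they share the low value of control replicate 4.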

How the data were processed

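Total RNA of 10 colon samples was hybridised to single-colour arrays. The authors deposited log2 probe set intensities after RMA in oligo (per the submitters' processing notes). The sources used here give no versions, options or genome build. RMA sets all arrays to 1 distribution, which hides any shift common to most genes. The table held 22203 probe sets, of which 19572 had 1 gene symbol in the platform annotation, 0 had several and 2631 had none. All named probe sets matched RefSeq by gene identifier. For each of 19505 genes the probe set of highest mean was kept. Array medians were 6.94 to 6.98, and pairs of arrays correlated at 0.977 to 0.996. For arrays, their number limits the precision. No detection calls were used, 0 of the 10 hormone genes lay in the lowest quartile of mean level, and 2 (Sct and Nts) lay below the median.

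Groups and replicate numbers came from the sample titles, and labels name no batch. Differences are ECP minus control, fitted with limma 3.58.1 (lmFit, then eBayes, two-sided) under R 4.3.3 without covariate or filter. P-values were adjusted by Benjamini-Hochberg across the 19505 genes and called under 0.05. The step was tested on simulated data. Exact permutation p-values of the 10 genes over 252 splits were 0.246 to 0.984 (two-sided). Same-numbered arrays had deviations from their group means that correlated at -0.24 to 0.08, so the numbers were not taken to pair the arrays.

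The genes and the 14 related lists (174 genes, 163 measured) were chosen with earlier results of these data known, as was leaving out control replicates 1 and 4. Named genes are the 10, Ins2, Ctrb1, up to 4 genes of smallest unadjusted p in a list, and the 3 genes most like each of the 10. Alternatives were the replicate block, 2 scalings, 2 filters on dim genes, the mean of probe sets, trend and robust options, array weights, leaving out single arrays or control replicates 1 and 4 or 1, 4 and 5, and acinar, epithelium or neuron levels as covariates.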

Additional observations from a re-analysis of the deposited data

Results flagged for a closer look

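Values of a gene or list were examined in 158 groups of 5 arrays. In 16 of them a single array stood off, by more than 0.71 of the whole range of its group. About 8 would do so by chance if the groups were independent. They are not, since list levels are means of genes that include named ones, and named genes were picked from lists chosen with these data known. The excess over 8 is thus no test. Control replicate 4 accounted for 11 of the 16.

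Control replicate 4 was low in Cck (7.40, next 8.09), in the fatty acid receptor gene Ffar4 (8.60, next 9.06), in the somatostatin receptor gene Sstr5 (5.38, next 5.98), in the level of nutrient and bile acid sensors (6.18, next 6.38) and in the level of colon epithelium markers (11.52, next 11.67). It was high in the B cell genes Blk (8.34, next 6.42), Cd22 (8.61, next 6.39), Cd79a (9.40, next 6.59) and Cd79b (8.90, next 6.40), in the B cell level (8.57, next 6.29) and in the islet gene Iapp (4.73, next 4.02). The part of pancreatic or lymphoid tissue in the low hormone values of this array was not tested.

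ECP replicate 1 was low in Pdx1, a transcription factor of pancreas and duodenum (5.49, next 6.02), and high in the zinc transporter gene Slc30a8 (4.43, next 4.16) and in the level of serotonin pathway genes (6.85, next 6.75). ECP replicate 2 was high in Piezo2 (7.14, next 6.65), and ECP replicate 3 in Sct (6.88, next 6.71).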

How the results depend on the processing

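Of the 10 genes, 0 were called under each of the 23 alternatives, with a smallest adjusted p of 0.770. The count over all genes was 0, or 1 with the lowest quartile left out, 1 with trend and robust options, 1 with the epithelium level as a covariate and 7 with genes below the median left out, and 0 to 1 without single arrays. Without genes below the median, Sct and Nts had no value. The median difference of the 10 (0.15) became -0.27 with the acinar covariate, and ranged from -0.062 to 0.22 without single arrays. Over all alternatives the difference of a gene changed sign 65 times, in 20 genes, of which 9 were among the 10. The 1514 values compared also include the counts of calls and the median difference, whose sign was not scored. For the covariates, array weights and sets without several controls, only values whose sign changed are listed. Pyy, Insl5 and Nts kept their sign in these settings. With the acinar covariate Chga was at -0.26, Chgb -0.29, Gcg -0.29, Tph1 -0.30, Cck -0.19, Sct -0.19, Sst -0.0096, Ffar4 -0.056, Ffar3 -0.036, Iapp 0.051, Ins2 0.18, Blk 0.16, Cd79a 0.31, Cd79b 0.41 and Cd22 0.39. Without control replicates 1 and 4, Chga was at -0.18, Chgb -0.19, Gcg -0.20, Tph1 -0.19, Cck -0.12, Sct -0.13, Ffar4 -0.011, Ffar3 -0.033, Ins2 0.056, Cd79a 0.056, Cd79b 0.18 and Cd22 0.19. Without control replicates 1, 4 and 5, Chga was at -0.20, Chgb -0.13, Gcg -0.28, Tph1 -0.10, Cck -0.17, Sst -0.047, Ffar4 -0.032, Cpb1 0.029, Pdx1 0.0061, Elavl4 -0.025, Cd79a 0.13, Cd79b 0.13 and Cd22 0.13. Array weights gave -0.031 for Chga, -0.034 for Cck and -0.026 for Sct. The epithelium covariate gave -0.018 for Chga, -0.067 for Cck and -0.11 for Sct, and the neuron covariate -0.037 for Gcg and -0.021 for Cck. Without single arrays the ranges were -0.068 to 0.25 for Chga, -0.057 to 0.37 for Chgb, -0.24 to 0.14 for Pyy, -0.41 to 0.28 for Insl5, -0.11 to 0.13 for Cck, -0.14 to 0.19 for Sct, 0.036 to 0.55 for Tph1, 0.059 to 0.46 for Gcg, 0.22 to 0.60 for Nts, 0.076 to 0.22 for Sst, 0.012 to 0.20 for Ffar4, -0.24 to -0.0005 for Iapp, -0.12 to 0.033 for Pdx1, -0.84 to 0.018 for Cd79a, -0.67 to 0.081 for Cd79b and -0.61 to 0.081 for Cd22. The cause of these moves was not tested. The replicate block called 0 genes and changed no call. In the pairing check, no array correlated best with its own number.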
